A study of Mus musculus with 15 samples.

Results

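Wound-associated and fetal-like epithelial genes are switched on in intestinal epithelium that closes a wound. A set of 9 such genes was chosen by symbol, with earlier results of these data known: *Ly6a*, *Anxa1*, *Anxa8*, *Sprr1a*, *Plaur*, *Clu*, *Msln*, *Ccn1* and *Ccn2*. Of these, 8 were measured by 1 probe set each, among 22142 probe sets of which 19527 carry exactly 1 gene symbol. *Ly6a*, which encodes the surface antigen Sca-1, was not among the named probe sets and is not analysed here. Colon tissue was taken from mice aged 11 weeks, with 5 mice in each of 3 groups and 1 Clariom S mouse array per mouse. The *Nemo* FL mice carry floxed alleles of *Nemo* (gene symbol *Ikbkg*) and served as controls. In NEMO IEC-KO mice, *Villin-Cre* deletes *Nemo* from the intestinal epithelium and *Ripk1* is wild-type, while the other cells of the colon keep NEMO. Mice of the third group, NEMO IEC-KO *Ripk1* S166A/S166A (hereafter S166A), share that epithelial deletion. They also carry on both *Ripk1* alleles, in all cells, a mutation that replaces an autophosphorylated serine of the kinase, S166, with alanine. The legend of the study's colon figure and its reporting summary describe the mice as littermates. The study asked whether this phosphorylation is needed for the colitis of NEMO IEC-KO mice.

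When the colon epithelium is breached, cells at the wound edge flatten and migrate, lower the programme of the crypt stem cells and turn on genes that are otherwise active in the fetal gut. In mice, this state is marked by Sca-1, annexins, small proline-rich proteins and clusterin. The transcriptional coactivators YAP and TAZ, which act through TEAD factors and are held back by the Hippo kinases, take part in it. *Ccn1* and *Ccn2*, which encode the matrix-associated proteins CYR61 and CTGF, are classical targets of YAP and TAZ in many cell types.

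The array medians lay between 6.27 and 6.36, and the values were read as log2 from their range. *Ikbkg* ranged from 6.18 to 6.55 in *Nemo* FL, from 4.85 to 5.30 in NEMO IEC-KO and from 5.23 to 5.43 in S166A mice, so that both groups with the epithelial deletion lay below all controls. It was lower by a log2 difference of -1.21 (adjusted p = 4.71e-06, limma) and of -1.09 (adjusted p = 0.000348, limma) than in *Nemo* FL. Mouse 55 is a *Nemo* FL control by its title but carries the NEMO IEC-KO genotype label. It was kept with the controls. Its *Ikbkg* value of 6.28 lay within the range of the other controls and above every NEMO IEC-KO mouse. Results below with mouse 55 among the NEMO IEC-KO mice follow its genotype label instead. Genes of the Y chromosome gave signal in 1 of 5 *Nemo* FL, 2 of 5 NEMO IEC-KO and 5 of 5 S166A mice, so sex differs between the groups. In the mice without that signal, the mean log2 level of these genes was 2.86 to 3.30, which serves below as a guide to background because the values carry no detection call. Mice 94 and 95, both S166A, had a narrower spread of values than the others, with interquartile ranges of 3.06 and 3.01 against 3.22 to 3.40. The groups take separate ranges of the numbers that open the sample titles, so that number and genotype cannot be told apart.

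The region around the gene start was available for 5 of the 9 genes, from 250 bases before to 50 bases after the start. It is printed for 3 genes that changed together, *Anxa1*, *Sprr1a* and *Plaur*, and for the YAP and TAZ target *Ccn1*. The sequences are RefSeq's on GRCm38.p6, at chr19:20390622-20390921 (minus strand) for *Anxa1*, chr3:92485832-92486131 (minus strand) for *Sprr1a*, chr7:24462233-24462532 (plus strand) for *Plaur* and chr3:145649936-145650235 (minus strand) for *Ccn1*. They read 5′ to 3′ along the gene, and capitals mark matches to the TEAD core CATTCC in *Anxa1* and *Ccn1* and to the AP-1 site TGANTCA in *Sprr1a* and *Plaur*.
Anxa1: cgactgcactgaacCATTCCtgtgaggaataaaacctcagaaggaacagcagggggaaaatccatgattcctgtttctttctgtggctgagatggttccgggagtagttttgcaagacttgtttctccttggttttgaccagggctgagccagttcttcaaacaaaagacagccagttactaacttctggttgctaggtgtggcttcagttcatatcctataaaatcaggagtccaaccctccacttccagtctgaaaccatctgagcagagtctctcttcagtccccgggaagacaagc
Sprr1a: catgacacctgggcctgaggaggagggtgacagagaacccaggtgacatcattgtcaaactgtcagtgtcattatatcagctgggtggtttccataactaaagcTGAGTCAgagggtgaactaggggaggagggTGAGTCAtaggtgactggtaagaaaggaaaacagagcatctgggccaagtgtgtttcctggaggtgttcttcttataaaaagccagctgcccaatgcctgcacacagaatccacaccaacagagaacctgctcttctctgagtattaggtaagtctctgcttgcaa
Plaur: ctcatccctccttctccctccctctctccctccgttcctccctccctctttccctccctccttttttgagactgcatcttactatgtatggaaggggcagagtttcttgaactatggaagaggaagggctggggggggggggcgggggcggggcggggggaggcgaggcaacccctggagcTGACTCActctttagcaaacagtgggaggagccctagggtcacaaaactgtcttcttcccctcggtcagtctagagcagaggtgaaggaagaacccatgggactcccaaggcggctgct
Ccn1: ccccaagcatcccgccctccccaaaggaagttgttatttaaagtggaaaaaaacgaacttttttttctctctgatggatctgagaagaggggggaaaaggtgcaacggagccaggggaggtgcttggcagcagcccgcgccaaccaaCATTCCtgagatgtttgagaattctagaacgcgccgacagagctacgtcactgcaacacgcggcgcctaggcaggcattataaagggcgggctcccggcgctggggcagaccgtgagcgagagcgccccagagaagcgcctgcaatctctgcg
*Sprr1a* held 2 copies of the AP-1 letters, at bases 105 to 111 and 135 to 141 of its window, and *Plaur* held 1, at bases 182 to 188. The TEAD core stood at bases 15 to 20 in *Anxa1* and at bases 148 to 153 in *Ccn1*. The window of *Anxa8* held none of the motifs searched on both strands, which were these 2, the STAT site TTCNNNGAA, the NF-κB consensus and the CArG box of SRF. No matches overlapped. Among 32851 promoter windows of the same length, 14.7% held the TEAD core, 7.81% the AP-1 letters, 8.3% the STAT letters, 8.46% the NF-κB consensus and 1.63% the CArG box. A match of letters is a description of the sequence and not a measured binding site.

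In NEMO IEC-KO colon, 4 of the 8 genes rose: *Plaur* 5.88-fold, *Sprr1a* at least 4.93-fold (its controls lay near background), *Anxa8* 2.17-fold and *Anxa1* 2.13-fold over *Nemo* FL. Among all named genes, 26.1% passed an adjusted p of 0.05 in this comparison and 11.8% did so as higher. The same 4 genes fell in S166A against NEMO IEC-KO mice, where 19.8% of the named genes passed and 10.2% as lower. The pair of comparisons shares the 5 NEMO IEC-KO mice. None of the 8 genes passed in S166A against *Nemo* FL, where 0.0563% of the named genes did, and 2 had an unadjusted p under 0.05 in limma against 10.5% of the named genes. *Clu*, *Msln*, *Ccn1* and *Ccn2* passed in none of the 3 comparisons. The median log2 difference of the 8 genes was 0.68 for NEMO IEC-KO against *Nemo* FL, -0.49 for S166A against NEMO IEC-KO and 0.0354 for S166A against *Nemo* FL, beside 0.00836, 0.0193 and 0.00198 over all named genes. With mouse 55 among the NEMO IEC-KO mice, 4 genes rose in the first comparison and 2, *Anxa1* and *Plaur*, fell in the second, and with that mouse left out 4 rose in the first. In bulk RNA, more cells of a type and more RNA per cell cannot be told apart.

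**Figure D1:**
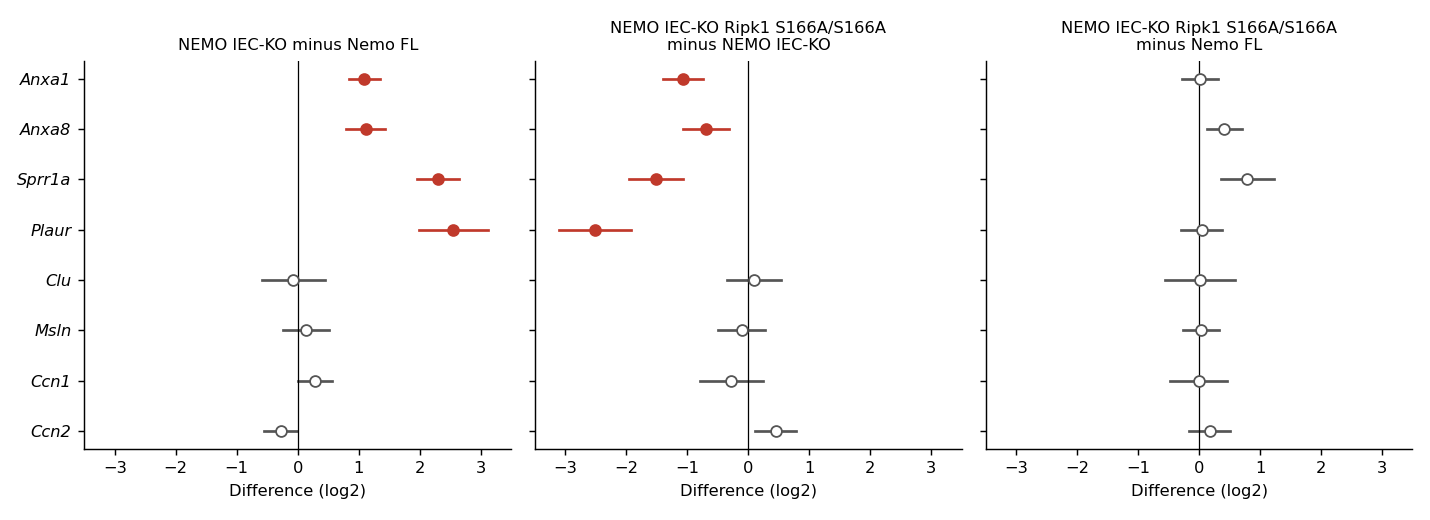
Log2 difference of each gene (x axis) with its 95% confidence interval from limma (bars) in the 3 comparisons, 5 mice per group. Filled red points passed an adjusted p of 0.05: *Anxa1*, *Anxa8*, *Sprr1a* and *Plaur* in the first panel (1.09 to 2.55) and in the second (-2.51 to -0.70), and none in the third.

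*Anxa1* encodes annexin A1, a phospholipid-binding protein that limits inflammation through formyl peptide receptors and promotes the closure of epithelial wounds. Its log2 values were 10.40, 10.31, 10.19, 10.11 and 10.42 in *Nemo* FL mice 18, 22, 28, 29 and 55. They were 11.28, 11.32, 11.59, 11.53 and 11.16 in NEMO IEC-KO mice 16, 30 and 31 and the fourth and the fifth mouse of that group, in title order. They were 10.31, 10.44, 10.73, 10.09 and 9.96 in S166A mice 27, 33, 56, 94 and 95. The lowest of the NEMO IEC-KO mice still exceeded the highest mouse of both other groups, which overlapped. The difference of NEMO IEC-KO from *Nemo* FL was 1.09 ± 0.119 (log2, SE, n = 5 per group, adjusted p = 9.92e-06, limma). Against NEMO IEC-KO, S166A mice fell by 1.07 ± 0.152 (log2, SE, n = 5, adjusted p = 0.000227, limma). Against *Nemo* FL their difference was 0.02, with a 95% confidence interval from -0.28 to 0.32 (adjusted p = 0.97, limma).

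*Anxa8* encodes annexin A8, a related calcium-dependent phospholipid-binding protein best known from stratified epithelia. In *Nemo* FL the log2 values were 9.51, 9.56, 9.60, 9.74 and 9.58 (mice in the order given for *Anxa1*), an SD of 0.0849. In NEMO IEC-KO they were 10.71, 11.03, 10.92, 10.77 and 10.14, with the fifth mouse the lowest. In S166A they were 10.13, 10.29, 9.67, 9.74 and 10.25. The NEMO IEC-KO mice did not overlap with *Nemo* FL, but 2 S166A mice, 33 and 95, lay above the fifth NEMO IEC-KO mouse. NEMO IEC-KO exceeded *Nemo* FL by 1.11 ± 0.148 (log2, SE, adjusted p = 6.39e-05, limma). S166A differed from NEMO IEC-KO by -0.70 ± 0.177 (log2, SE, adjusted p = 0.0119, limma), and from *Nemo* FL by 0.42 with an interval of 0.13 to 0.70 (adjusted p = 0.382, limma). The call against NEMO IEC-KO was lost with mouse 55 placed among the NEMO IEC-KO mice (-0.51, adjusted p = 0.201, limma) and without mice 94 and 95 (adjusted p = 0.0518, limma). In S166A against *Nemo* FL, 4 of 5 mice lay above every control and mouse 56 lay among them.

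*Sprr1a* encodes a small proline-rich protein, a precursor that transglutaminases cross-link into the cornified envelope of stratified epithelia, and its promoter is shown above with its pair of AP-1 matches. Its log2 values were 3.63, 2.95, 3.34, 3.07 and 3.55 in *Nemo* FL. In NEMO IEC-KO they were 5.74, 5.42, 5.28, 6.02 and 5.59, and in S166A they were 3.99, 4.81, 3.70, 4.36 and 3.64. The 3 groups did not overlap with each other, and S166A took the middle place. The distance to the controls was small at its edge, where mouse 95 stood at 3.64 and the highest control, mouse 18, at 3.63. NEMO IEC-KO exceeded *Nemo* FL by 2.30 ± 0.163 (log2, SE, adjusted p = 1.39e-07, limma). The control mean of 3.31 stood next to the background guide (2.86 to 3.30), so differences of this gene from *Nemo* FL are lower bounds. S166A fell by 1.51 ± 0.209 against NEMO IEC-KO (log2, SE, adjusted p = 0.000184, limma). This call was lost with mouse 55 among the NEMO IEC-KO mice (-1.17, adjusted p = 0.0647, limma). Against *Nemo* FL the difference of 0.79 (1.73-fold, interval 0.36 to 1.23) did not pass over all probe sets (unadjusted p = 0.00142, adjusted p = 0.264, limma). The exact two-sided permutation test of this gene alone gave an unadjusted p of 0.00794, the smallest that 252 assignments of 10 mice allow. Groups without overlap and with higher values in S166A were found for 0.712% of the named genes in this comparison. *Sprr1a* also met the fold change of the study's heat map legend with an unadjusted p under 0.05, as did 0.599% of the named genes in this direction.

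*Plaur* encodes the urokinase receptor, a membrane-anchored protein of the Ly6 family that gathers plasminogen activation at the cell surface and is made by migrating epithelium as well as by neutrophils and macrophages. The log2 values in *Nemo* FL were 5.86, 5.66, 6.00, 5.56 and 5.41. In NEMO IEC-KO they were 7.73, 7.65, 7.98, 8.49 and 9.43, the widest spread of any group for this gene (SD 0.734). In S166A they were 5.83, 5.75, 5.73, 6.16 and 5.24. The fifth NEMO IEC-KO mouse was the highest, all 5 mice of that group lay above all others, and the other groups overlapped. NEMO IEC-KO exceeded *Nemo* FL by 2.55 ± 0.267 (log2, SE, adjusted p = 6.72e-06, limma), and S166A fell by 2.51 ± 0.278 against NEMO IEC-KO (log2, SE, adjusted p = 2.81e-05, limma). The difference left against *Nemo* FL was 0.04, with an interval from -0.30 to 0.38 (adjusted p = 0.939, limma). The mean log2 level of 12 neutrophil markers in the same NEMO IEC-KO mice was 6.10, 7.09, 7.72, 7.60 and 8.35, with the fifth mouse again the highest. It lay between 4.19 and 4.62 in *Nemo* FL and between 4.40 and 4.81 in S166A mice. The part of these cells in the *Plaur* signal was not tested.

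Groups that did not overlap were thus seen for 4 of the 8 genes between NEMO IEC-KO and *Nemo* FL, each with NEMO IEC-KO higher, a pattern shown by 8.23% of the named genes. Between S166A and NEMO IEC-KO they were seen for 3 of the 8, *Anxa1*, *Sprr1a* and *Plaur*, where 6.75% of the named genes showed lower values without overlap.

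**Figure D2:**
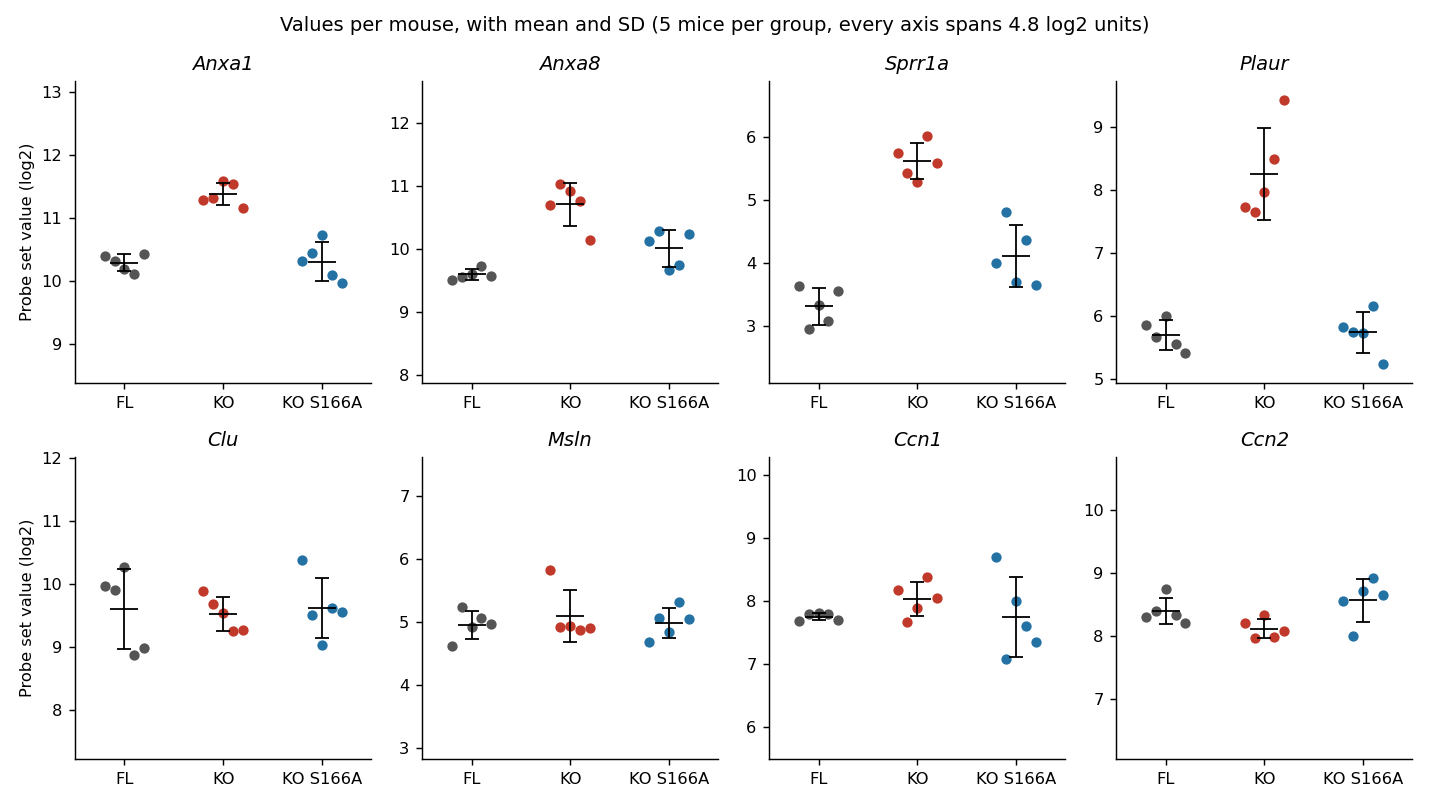
Log2 probe set values (y axis) of the 8 genes in each mouse (points), with the mean and SD of the 5 mice per group (lines). FL is *Nemo* FL, KO is NEMO IEC-KO and KO S166A is the S166A group; all axes span the same number of log2 units. The NEMO IEC-KO points stand clear of the *Nemo* FL points in the upper row and overlap with them in the lower row.

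*Clu* encodes clusterin, a secreted chaperone that marks the revival stem cells of the injured mouse intestine. Its log2 values were 9.98, 9.92, 10.28, 8.87 and 8.99 in *Nemo* FL, 9.90, 9.69, 9.55, 9.26 and 9.27 in NEMO IEC-KO, and 10.38, 9.51, 9.04, 9.62 and 9.56 in S166A. The 3 groups overlapped, and the controls alone spanned 1.41 log2 units, with mice 29 and 55 low. The difference of NEMO IEC-KO from *Nemo* FL was -0.08, with an interval from -0.59 to 0.44 (adjusted p = 0.858, limma). S166A differed from NEMO IEC-KO by 0.09 (interval -0.35 to 0.53) and from *Nemo* FL by 0.02 (interval -0.56 to 0.59).

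*Msln* encodes mesothelin, a membrane-anchored glycoprotein of the mesothelium that is also found in fetal-like epithelium. The log2 values were 4.62, 5.23, 4.91, 5.06 and 4.96 in *Nemo* FL, 5.83, 4.92, 4.94, 4.88 and 4.91 in NEMO IEC-KO, and 4.69, 5.06, 4.84, 5.31 and 5.04 in S166A. NEMO IEC-KO mouse 16 stood above every other mouse, and the remaining values of the 3 groups overlapped. The group differences were 0.14 (interval -0.24 to 0.52) for NEMO IEC-KO against *Nemo* FL, -0.11 (interval -0.50 to 0.28) for S166A against NEMO IEC-KO and 0.03 (interval -0.27 to 0.33) against *Nemo* FL. The mean log2 level of 7 measured mesothelial markers lay between 5.15 and 5.51 in all mice. In NEMO IEC-KO against *Nemo* FL, 1 of the 7, *Wt1*, was called higher (0.53), beside 11.8% of the named genes. It lost this call with mouse 55 among the NEMO IEC-KO mice (adjusted p = 0.334, limma) and with all 3 groups in 1 fit (adjusted p = 0.051, limma).

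*Ccn1* encodes the matricellular protein CYR61, which binds integrins, and its promoter is shown above with a TEAD core. In *Nemo* FL its log2 values were 7.68, 7.78, 7.81, 7.78 and 7.69, the tightest of the 24 sets of 5 values for these genes (SD 0.0588). In NEMO IEC-KO they were 8.16, 7.66, 7.88, 8.38 and 8.04, and in S166A they were 8.69, 7.08, 7.99, 7.60 and 7.34. Of the NEMO IEC-KO mice, 4 lay above every control and mouse 30 lay below all of them, while the S166A mice spanned 1.61 log2 units on both sides of the controls. The difference of NEMO IEC-KO from *Nemo* FL was 0.28 (interval -0.0013 to 0.56), with an unadjusted p of 0.0509 and an adjusted p of 0.138 in limma. Without NEMO IEC-KO mouse 30 it was 0.37 and passed (adjusted p = 0.0395, limma). S166A differed from NEMO IEC-KO by -0.28 (interval -0.80 to 0.23) and from *Nemo* FL by -0.01 (interval -0.48 to 0.46).

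*Ccn2* encodes the matricellular protein CTGF, a target shared by YAP and by TGF-β signalling that is made by stromal cells as well as epithelium. Its log2 values were 8.30, 8.40, 8.74, 8.32 and 8.20 in *Nemo* FL. They were 8.20, 7.97, 8.33, 7.99 and 8.08 in NEMO IEC-KO, and 8.55, 8.00, 8.72, 8.91 and 8.64 in S166A. The direction was opposite to that of the 4 genes above, with 4 of 5 NEMO IEC-KO mice below every control and 4 of 5 S166A mice above every NEMO IEC-KO mouse, but the groups overlapped and neither difference passed. NEMO IEC-KO differed from *Nemo* FL by -0.28 (interval -0.55 to -0.01, unadjusted p = 0.0427, adjusted p = 0.121, limma). S166A differed from NEMO IEC-KO by 0.45 (interval 0.12 to 0.79, unadjusted p = 0.0117, adjusted p = 0.0575, limma), and by 0.59 without mouse 33, when it passed (adjusted p = 0.00704, limma). Without mice 94 and 95 the difference of S166A from NEMO IEC-KO was 0.31 (adjusted p = 0.278, limma). Against *Nemo* FL the difference was 0.17 (interval -0.16 to 0.51). The exact two-sided permutation test of *Ccn2* gave an unadjusted p of 0.0476 in NEMO IEC-KO against *Nemo* FL. It gave 0.0317 in S166A against NEMO IEC-KO. The mean log2 level of 9 smooth muscle markers was lower in NEMO IEC-KO (8.07 to 9.84) than in *Nemo* FL (10.6 to 11.1) and S166A mice (10.4 to 11.0), and its part in the *Ccn2* values was not tested.

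The gene lists that follow were also chosen with earlier results of these data known. Other genes known from wound-associated or fetal-like intestinal epithelium were measured for 24 of 28 listed symbols. In NEMO IEC-KO against *Nemo* FL, where 11.8% of all named genes were called higher and 14.3% lower, 16 of them rose and 1 fell, with a median log2 difference of 0.85. *Plet1*, a surface marker of fetal and wound epithelium, rose by 4.93 (adjusted p = 3.64e-08, limma), and *Mmp7*, which encodes the metalloproteinase matrilysin, rose by 3.33 (adjusted p = 5.79e-08, limma) from control values of 3.26 to 3.72, little above background. In S166A against NEMO IEC-KO mice, where 10.2% of all named genes were called lower and 9.64% higher, 15 fell and 1 rose (median -0.67), with *Plet1* at -3.86 and *Mmp7* at -3.10. None passed in limma in S166A against *Nemo* FL (median 0.06), and 4 of the 24 had an unadjusted p under 0.05, beside 10.5% of the named genes. *Plet1* had a difference of 1.07 there that did not pass (adjusted p = 0.414, limma). Without mouse 55 the count in NEMO IEC-KO against *Nemo* FL was 17 higher and 1 lower, and with that mouse among the NEMO IEC-KO mice it was 10 and 0. In S166A against NEMO IEC-KO mice, the counts were then 9 lower and 0 higher.

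The next list shares *Myof* and *F3* with the one above. Targets of YAP and TAZ were taken from a set defined across cancers, with 20 measured genes once *Ccn1* and *Ccn2* were left out. Of these, 1 rose and 8 fell in NEMO IEC-KO against *Nemo* FL (median -0.13), the former being *Myof* with 0.61, beside 11.8% and 14.3% of all named genes. In S166A against NEMO IEC-KO mice, 6 rose and 2 fell (median 0.22), beside 9.64% and 10.2%. *Crim1*, a transmembrane protein that binds BMPs, differed by -1.24 and 1.16, and *Asap1*, a GTPase-activating protein for ARF, by -0.93 and 0.87, each past the test in both comparisons. With mouse 55 among the NEMO IEC-KO mice, 0 rose and 3 fell against *Nemo* FL, 3 rose and 0 fell in S166A, and *Asap1* lost both calls (adjusted p = 0.0948 and 0.0916, limma). Of 15 genes of the Hippo pathway, 2 rose in NEMO IEC-KO against *Nemo* FL. They were the TEAD factor gene *Tead4* with 0.91 and *Wwc1*, which encodes the adaptor KIBRA, with 0.43. In S166A against NEMO IEC-KO 2 fell, of which only *Tead4* had risen in NEMO IEC-KO. These counts stand near the shares of all named genes (11.8% and 10.2%), and both were 0 with mouse 55 among the NEMO IEC-KO mice. *Wwc1* lost its call in NEMO IEC-KO when any of 7 mice was left out (adjusted p up to 0.0897, limma), and *Tead4* its call in S166A (-0.54) when any of 5 was. The latter was also lost with a sex term (adjusted p = 0.256, limma) and in the mice with Y chromosome signal alone (adjusted p = 0.249, limma). Of 10 genes of crypt base stem cells, 4 fell in NEMO IEC-KO (median -0.37, beside 14.3% of all named genes), including *Lrig1* with -0.58 and *Rgmb* with -0.57, and none rose.

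**Figure D3:**
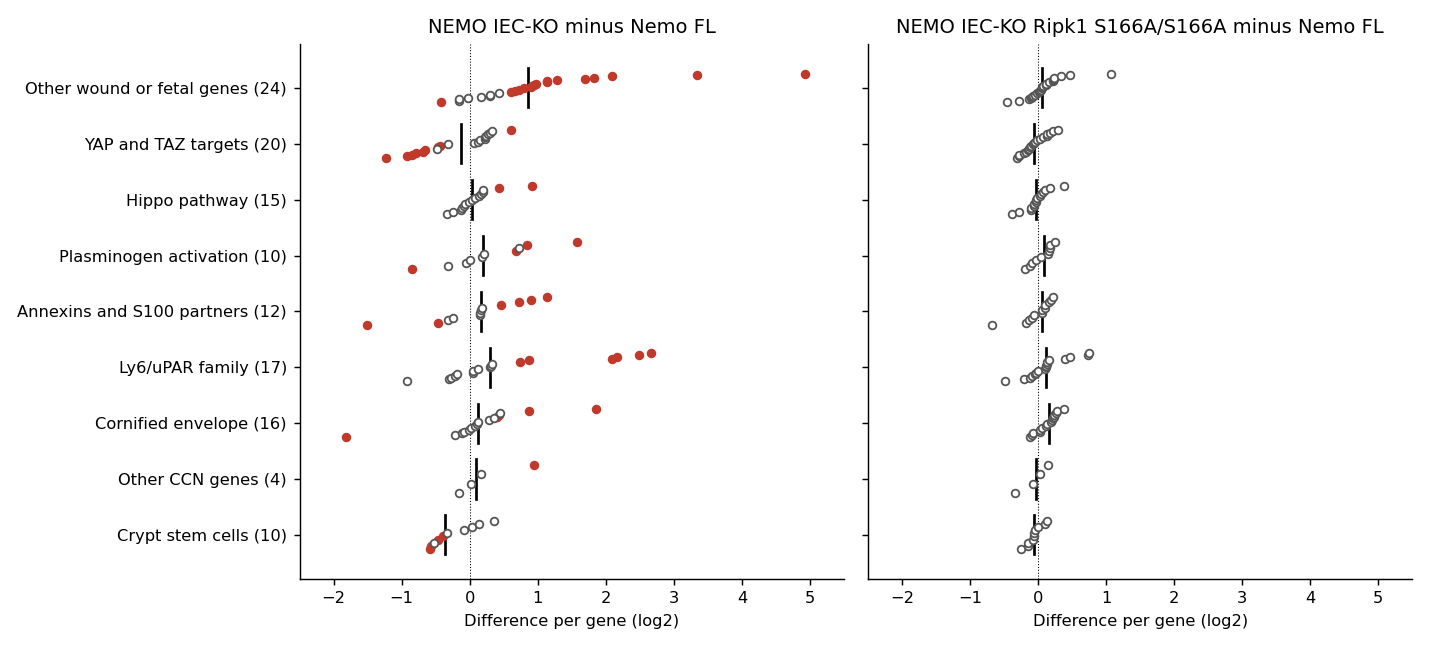
Log2 difference of each gene (points, x axis) for the lists named at the left, with the number of genes measured, in NEMO IEC-KO (left) and in S166A (right) against *Nemo* FL mice. Filled red points passed an adjusted p of 0.05 in limma, and vertical bars are the medians (0.85 and -0.13 at the left for the top pair of lists). No point is filled at the right.

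Members of the same gene families were also measured, and their counts stand beside 11.8% of all named genes higher and 14.3% lower in NEMO IEC-KO against *Nemo* FL, and 10.2% lower in S166A against NEMO IEC-KO. The lists share genes, so their counts are not independent. *Ly6d*, *Anxa2*, *Anxa3*, *S100a10* and *S100a11* are also in the list of other wound-associated or fetal-like genes, and *Itgam* is also a macrophage marker below. Of the 17 other Ly6 and uPAR domain genes, 6 rose and none fell in NEMO IEC-KO against *Nemo* FL (median 0.30), and 6 fell in S166A against NEMO IEC-KO mice. With mouse 55 among the NEMO IEC-KO mice, these counts were 3 and 2. *Ly6c1* and *Ly6c2*, markers of monocytes and of some lymphocytes and endothelial cells, had the largest differences (2.66 and 2.49), although these near-identical copies may share signal. Of 12 other annexins and their S100 partners, 4 rose and 2 fell in NEMO IEC-KO (median 0.16), among them *S100a11* with 1.14 and *Anxa13*, an annexin of differentiated intestinal epithelium, with -1.52. Of 16 other small proline-rich and cornified envelope genes, 4 rose and 1 fell (median 0.12), *Sprr2h* with at least 1.86 (control mean 2.76, at background) and the transglutaminase gene *Tgm3* with -1.82, and *Sprr1b*, the nearest relative of *Sprr1a*, differed by -0.01 (adjusted p = 0.965, limma). Of these 16, 2 rose without mouse 55 and 1 rose with that mouse among the NEMO IEC-KO mice. Around *Plaur*, 3 of 10 genes of plasminogen activation rose and 1 fell (median 0.19), with *Itgam*, an integrin chain of myeloid cells, at 1.58 and *Lrp1*, a scavenger receptor, at -0.84. With mouse 55 moved, none of the 10 passed in limma as higher and *Itgam* lost its call (adjusted p = 0.0928). Of the 4 other CCN genes, *Ccn3* rose by 0.95 in NEMO IEC-KO and fell by 1.29 in S166A against NEMO IEC-KO mice. Both calls were lost with mouse 55 moved (adjusted p = 0.244 and 0.0552, limma), and the former also in the mice without Y chromosome signal (adjusted p = 0.0556, limma).

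Genes of the interferon gamma response, which serve antigen presentation and the recruitment of T cells and in mice include *Ly6a* itself, rose in NEMO IEC-KO for 13 of 13 measured (median 2.58, *Ly6a* not among them, beside 11.8% of all named genes), with *Ido1* at 6.07 and *Cxcl9* at 4.68. They fell for 11 of 13 in S166A against NEMO IEC-KO (median -1.40), beside 10.2%. With mouse 55 among the NEMO IEC-KO mice, 11 rose in the first of these comparisons and 1 fell in the second. Against *Nemo* FL, 1 gene of all these lists passed, the immunity-related GTPase gene *Iigp1*, which was higher by 2.51 (adjusted p = 0.00514, limma). It lost this call with trend and robust settings (adjusted p = 0.0532, limma), while 4 genes of the interferon list passed with all 3 groups in 1 fit and *Anxa13* passed when arrays were weighted (adjusted p = 0.0433, limma). All 13 had an unadjusted p under 0.05 against *Nemo* FL (median 1.18), beside 10.5% of the named genes. The mean log2 level of the 13 genes was 7.57, 8.99, 8.02, 8.13 and 7.22 in S166A mice 27, 33, 56, 94 and 95, against 6.31 to 7.30 in *Nemo* FL and 9.40 to 9.99 in NEMO IEC-KO. Mouse 33, the highest of its group here, was also the highest of its group for *Sprr1a* and *Anxa8*. For *Anxa1* the highest of the group was mouse 56 (10.73), and for *Plaur* it was mouse 94 (6.16). Mouse 95, the lowest here, was the lowest for *Sprr1a*, *Anxa1* and *Plaur* but stood at 10.25 for *Anxa8*, next to the highest. The relation of these levels to the members was not tested.

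Markers of intestinal epithelium lay between 10.7 and 11.0 (mean log2 level of 10 genes) in all 15 mice, and 1 of 10 rose in NEMO IEC-KO, *Cldn7* with 0.41, a call that was lost without mouse 28 or mouse 29. The 13 measured markers of squamous epithelium, which makes both *Sprr1a* and *Anxa8*, lay between 4.54 and 4.94 in all mice, with 1 higher (*Krt13*, 0.56) and 1 lower (*Krt17*, -0.50) in NEMO IEC-KO. Beside these counts, and those that follow for NEMO IEC-KO, stand 11.8% (higher) and 14.3% (lower) over the named genes. None of these epithelial and squamous calls held in limma with mouse 55 among the NEMO IEC-KO mice. Of the markers of cells that can enter or leave a colon sample, 11 of 12 for neutrophils (median 2.60, *S100a8* at least 6.43 from a control mean of 2.83, at background), 9 of 10 for monocytes and macrophages (median 1.12) and 5 of 8 for T cells (median 0.77) were higher in NEMO IEC-KO. Those of smooth muscle were lower for 9 of 9 (median -1.36, *Synm* -1.87), those of fibroblasts for 5 of 10 (median -0.40, *Lum* -1.47) and those of endothelium for 1 of 9 (*Tek* -0.99). With mouse 55 among the NEMO IEC-KO mice, 5 neutrophil, 3 macrophage and 1 T cell markers were higher, and 1 marker each of smooth muscle, fibroblasts and endothelium was lower. In S166A against *Nemo* FL mice, no marker of these 9 cell types passed in limma, but 4 of 10 fibroblast and 3 of 8 T cell markers had an unadjusted p under 0.05, beside 10.5% of the named genes, and at most 2 in each of the other cell types. The share of these cells in the differences of *Anxa1*, *Anxa8* and *Sprr1a* was not tested.

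**Figure D4:**
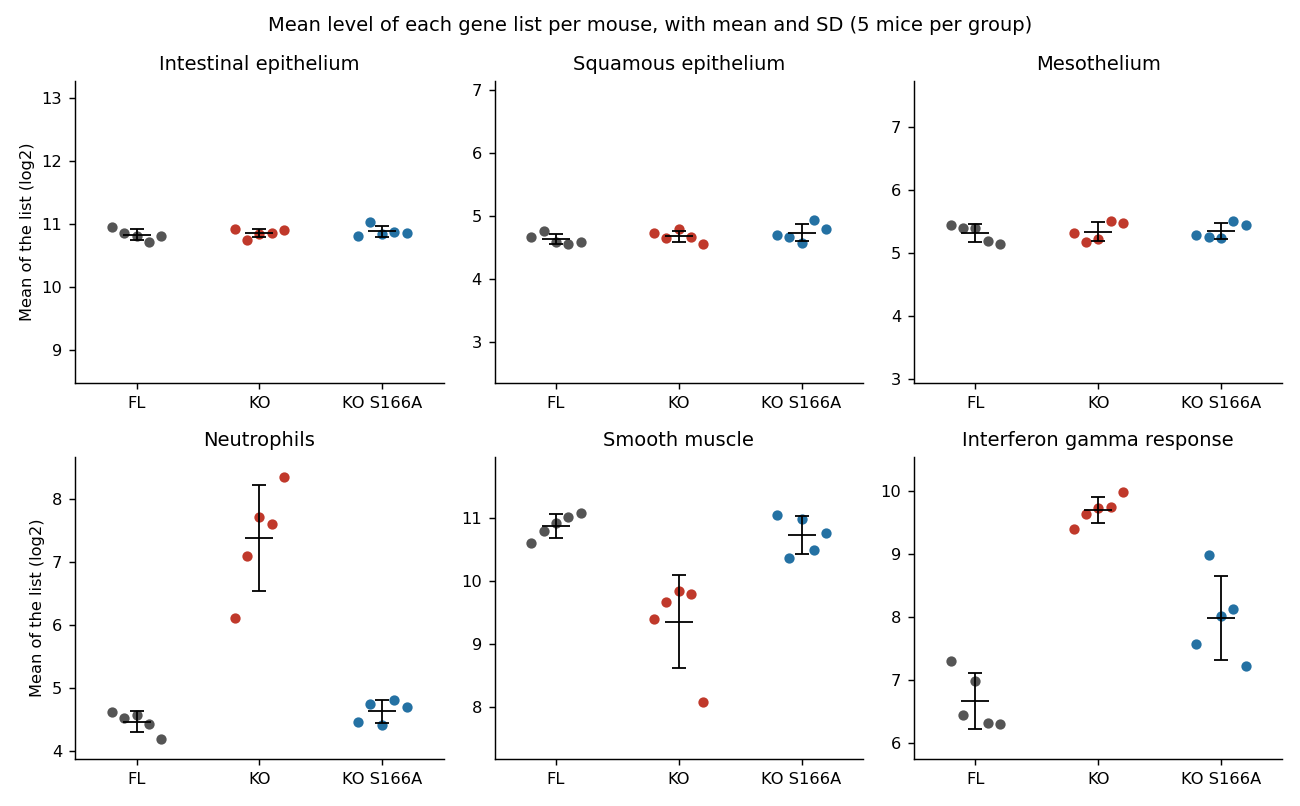
Mean log2 level of 6 gene lists (y axis) in each mouse (points), with the mean and SD of the 5 mice per group (lines). The epithelial, squamous and mesothelial lists overlap between groups, and the neutrophil list (6.10 to 8.35), the smooth muscle list (8.07 to 9.84) and the interferon gamma list (9.40 to 9.99) of NEMO IEC-KO mice stand apart from those of *Nemo* FL mice.

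Over the 15 mice, the genes with the most similar profile differed between the members. Pearson's r is given as a description, since the points fall into the 3 genotype groups and a difference between groups alone raises it. The most similar genes were also picked as the highest of all named genes over few mice, which by itself gives a high r. No r was tested. *Anxa1* was most like *S100a16*, *Ostc* and *S100a10* (r = 0.964 to 0.981), and *Anxa8* was most like *Slc25a31*, *Grhl3* and *Sirpb1c* (r = 0.898 to 0.904). *Sprr1a* was most like *AW112010*, *Ubd* and *Ido1* (r = 0.962 to 0.965), and *Plaur* was most like *Mmp3*, *S100a9* and *Slc7a11* (r = 0.980 to 0.987). Of the genes that passed in none of the 3 comparisons, *Clu* was most like *Ubqln4*, *Seh1l* and *Mfge8* (r = 0.807 to 0.883). *Msln* was most like *Sult2a6*, *Akp3* and *Fam117b* (r = 0.819 to 0.841). *Ccn1* was most like *Clic4*, *Eif5a2* and *Ret* (r = 0.788 to 0.807), and *Ccn2* like *Olfr107*, *Zbtb4* and *Phkg1* (r = 0.883 to 0.893). Among the members, *Anxa1*, *Anxa8*, *Sprr1a* and *Plaur* had an r of 0.67 to 0.87 with each other, and *Ccn1* and *Ccn2* of -0.01.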

How the data were processed

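Colon RNA of 15 mice was hybridised to Clariom S mouse arrays, 100 ng per array. The authors deposited a table of log2 values, with 22142 probe sets and 1 column per mouse. The base was read from the range (1.69 to 13.6), and the summary, background correction and normalization steps are not given in the sources used here, so fold changes rest on that reading. Per the labels, Affymetrix Expression Console and Transcriptome Analysis Console were used. The number of arrays limits the precision. Probe sets were named from the platform annotation, in which 19527 had exactly 1 symbol and 2615 had none.

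No further normalization was applied. limma 3.58.1 (R 4.3.3) was run on the 2 groups of a comparison at a time, through lmFit and eBayes. P-values of the 22142 probe sets were adjusted together by Benjamini-Hochberg, with a threshold of 0.05. The code was tested on simulated data. Counts are of probe sets with 1 symbol. A single gene was tested by an exact two-sided permutation test over 252 assignments. Groups follow the sample titles. The 9 genes, the other gene lists, the tests and the alternatives were chosen with earlier results of these data known. List genes chosen for naming are the 2 largest changes of each list past the threshold in NEMO IEC-KO against *Nemo* FL, any list gene past it in S166A against *Nemo* FL, and for each member the 3 genes most like it. Not all of the chosen list genes are named in the text. *Myof* and *Sprr1b* were named after their values were seen. Promoter windows are from RefSeq (GRCm38.p6), and motifs were searched on both strands.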

Additional observations from a re-analysis of the deposited data

Results flagged for a closer look

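*Msln* in NEMO IEC-KO mouse 16 stood far from the other mice of its group, at a log2 value of 5.83 against 4.88 to 4.94 in the other 4. Its distance to the nearest of them took 0.933 of the range of the group, above Dixon's critical value of 0.71 for 5 samples. The 8 genes in 3 groups gave 24 such sets of values, of which 1 passed this value, and chance alone passes about 1 in 20.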

How the results depend on the processing

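No paired analysis was run, because the sample titles give no litter or other pairing of mice across the groups. With mouse 55 placed among the NEMO IEC-KO mice, 2 of the 8 genes in place of 4 passed in S166A against NEMO IEC-KO. At the fold change of the study's heat map legend with an unadjusted p under 0.05 in limma, 1 in place of 0 passed against *Nemo* FL, *Sprr1a* (0.79). *Ccn2* in S166A against NEMO IEC-KO passed with all 3 groups in 1 fit (adjusted p = 0.0355), with trend and robust settings (0.0393), after quantile normalization (0.0499) and after leaving out dim probe sets (0.0459), all in limma. Among other settings, it did not pass with a sex term (adjusted p = 0.211) or in the mice with Y chromosome signal alone (0.242), both in limma. Nor did it pass without mice 94 and 95 (0.278) or with mouse 55 among the NEMO IEC-KO mice (0.0923), again in limma. Leaving out each mouse in turn gave 4 to 5 genes in NEMO IEC-KO against *Nemo* FL, 4 to 5 in S166A against NEMO IEC-KO and 0 to 0 against *Nemo* FL. Of 477 values of the 8 genes under the alternatives, 467 kept their side of the threshold and none changed direction with a call. The cause of these changes was not tested.

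Over all named genes, 5106, 3868 and 11 passed in the 3 comparisons. These counts were 1664, 1322 and 10 with mouse 55 among the NEMO IEC-KO mice and 2870, 2436 and 190 at the legend's thresholds. With the mice lacking Y chromosome signal alone, 3375 passed in the first comparison. Without mice 94 and 95, 2229 passed in the second and 3 in the third. The third gave 19 with all groups in 1 fit, 7 with trend and robust settings, 24 when arrays were weighted and 7 to 35 with each mouse left out in turn. Of the 35 list genes chosen for naming, all passed in the first comparison and 28 in the second, and 16 and 19 lost these calls once mouse 55 was moved. A sex term could not be fitted to S166A against *Nemo* FL without resting on 1 control mouse and was not run. No member has a second probe set, and *Sprr1a* was not tested after leaving out dim probe sets. The number of arrays and the unknown normalization limit small differences, such as those of *Ccn1*, *Ccn2*, *Clu* and *Msln*.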
